A study of Mus musculus with 21 samples.

Results

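The NNK main effect is the difference, averaged over mice with and without repeated LPS, between lung tumours of mice given the carcinogen NNK and lung tissue of mice given none. It was computed for each gene as the mean of the NNK and NNK_LPS groups minus the mean of the Control and LPS groups, on the log2 scale, from 12 of the 21 libraries of the series. Of 38924 gene symbols counted, 15770 passed a filter on low counts and were tested. The average joins 2 component effects that share no library: NNK against Control, the effect without LPS, and NNK_LPS against LPS, the effect with LPS. A gene is called concordant here when its adjusted p was under 0.05 in the main effect and in both component effects, with 1 sign in all of them. This held for 677 genes, of which 336 were higher and 341 lower in the NNK groups.

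All mice were female A/J, sampled at 22 weeks. The NNK and NNK_LPS groups had received 1 intraperitoneal dose of 100 mg/kg of NNK, a nitrosamine of tobacco smoke, and the Control and LPS groups the vehicle alone. The LPS and NNK_LPS groups were given LPS, a component of the bacterial outer membrane that provokes inflammation, intranasally at 5 µg in 50 µL of buffered saline 1 time per week, starting 1 week after NNK. A further 9 libraries came from NNK_LPS mice fed silibinin (NNK_LPS_Sil), indole-3-carbinol (NNK_LPS_I3C) or both (NNK_LPS_Sil_I3C), each at 20 µmol per g of diet; they shared in the estimate of the spread but not in the contrast. In all groups given NNK the RNA came from tumours (tissue of 3 mice was pooled per group), while Control and LPS RNA came from normal lung, so that NNK treatment and tumour tissue cannot be told apart. No label tells if the 3 replicates within 1 group are different animals, and p-values measure the spread between these libraries only.

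Lung tumours of A/J mice treated with such carcinogens are known as adenomas and adenocarcinomas. The MEK and ERK kinase cascade, a growth signalling pathway, switches on ETS transcription factors and its own inhibitors. These tumours are commonly described as resembling alveolar type 2 cells, which make surfactant lipids and proteins.

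The 12 libraries held 13.3 to 17.5 M counts each. They formed 2 sets by how many mt-Atp8 counts there were per mt-Atp6 count, a feature that the labels do not explain. It was 0.0206 to 0.0236 in the Control and NNK libraries and in LPS 1 and LPS 2, and 0.0782 to 0.0854 in LPS 3 and the NNK_LPS libraries. NNK against Control therefore lay within 1 set, while NNK_LPS against LPS did so for LPS 3 alone. Without LPS 1 and LPS 2, an alternative chosen after the data were seen, 368 genes were concordant, 339 of them among the 677. Values without these libraries stand beside several results below.

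Averaged over LPS, 5074 genes (32.2%) differed, 2219 higher (14.1%) and 2855 lower (18.1%) in the NNK groups, and the median over all genes was -0.03 on the log2 scale. Changes of at least 2-fold were found for 274 higher and 322 lower genes. The component effect with LPS called 6024 genes (38.2%), and that without LPS 2064 (13.1%). Most of the 5074 were called in 1 component effect alone, 3165 with LPS and 574 without, and 614 were called in neither. The bar chart of these classes shows the 677 concordant genes as 32.8% of the list without LPS and 11.2% of the list with LPS.

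**Figure D1:**
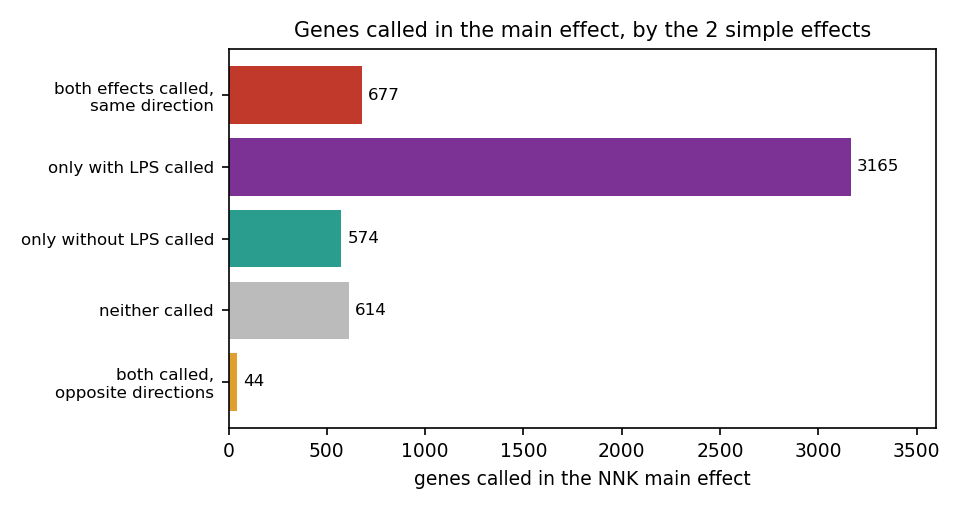
Bars give the number of genes called in the NNK main effect (edgeR adjusted p under 0.05), sorted by which of the 2 component effects was also called. The class called only with LPS is the largest at 3165 genes, 677 were called in both with the same sign and 44 in both with opposite signs.

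The concordant genes made up 4.29% of all genes tested, 2.13% higher and 2.16% lower. Their median main effect was 0.69 on the log2 scale among the higher genes, with 0.62 without and 0.71 with LPS, and -0.39 among the lower genes, with -0.36 and -0.41. In both component effects the 3 libraries of each group did not overlap for 308 of the higher and 323 of the lower genes, as for 5.45% and 6.44% of all genes tested. All 6 tumour libraries stood above all 6 lung libraries for 233 of the higher genes and below them for 232 of the lower ones. Of all genes, 2.82% and 3.16% did so. The concordant genes were called on these same 12 libraries, so their separation follows in part from how they were chosen and is no further support. A change of at least 2-fold in both component effects was found for 68 higher and 12 lower genes. The difference of the component effects was itself called in 3955 genes of all tested (25.1%) and in 65 of the 677. Another 352 genes were called in both component effects with opposite signs, 236 of them higher without LPS and lower with it. In the scatter of both component effects, these lie in the quadrants away from the diagonal.

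**Figure D2:**
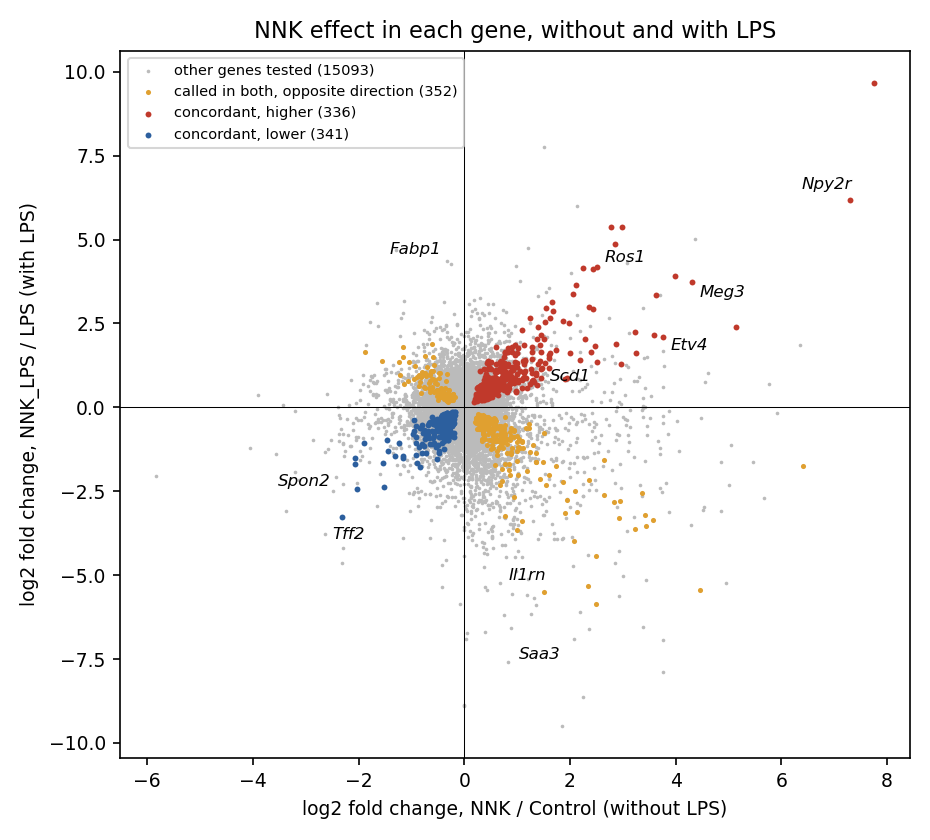
Each point is 1 tested gene, with the log2 fold change of NNK over Control on the horizontal axis and of NNK_LPS over LPS on the vertical axis. The 336 red and 341 blue points are the concordant genes, and the 352 orange points were called in both with opposite signs. The topmost red point is Spag11b, which had no counts in Control or LPS, so its place depends on the prior count of the fit.

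The number of concordant genes depended on single libraries. It was 154 without Control 2, 206 without NNK 1, 276 without Control 1 and 379 without NNK 3, and lay between 472 and 768 when any other library was left out. The count of the component effect without LPS went with it, at 404, 492, 790.0 and 1064 genes in the same order. The lower genes numbered 265 without Control 3, 270.0 without NNK_LPS 3 and 33 to 210.0 without any 1 of the others. With the 4 groups alone in the fit, 425 higher and 268 lower genes were concordant. Across 19 alternatives that test for any change, every 1 of the 677 genes that was tested kept its sign in the main and both component effects. With the 4 groups alone 676 were tested. The alternatives reuse the libraries on which the 677 were chosen for having 1 sign, so the kept signs are no further support. Of the 677, 82 were concordant in all 19 alternatives, 67 higher and 15 lower.

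Receptor and ERK pathway genes were among the highest. Ros1 encodes a receptor tyrosine kinase and lies at chr10:52045721-52195244 (GRCm38, minus strand, protein coding). Its level was 4.63, 6.00 and 4.33 CPM (counts scaled to library size) in Control, 42.4, 20.2 and 22.5 in NNK, 2.94, 1.84 and 1.08 in LPS, and 36.2, 41.9 and 28.6 in NNK_LPS. All 6 tumour libraries stood above all 6 lung libraries, and the lung libraries given LPS were below the untreated ones. The main effect was 3.35 ± 0.30 (log2 fold change ± standard error, 3 libraries per group; adjusted p = 2.37e-06). The effect was 2.50 ± 0.40 without LPS and 4.19 ± 0.44 with it, and their difference was called (1.68 ± 0.58, adjusted p = 0.0443).

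Etv4, an ETS transcription factor induced by ERK signalling, lies at chr11:101769742-101785371 (GRCm38, minus strand, protein coding). It stood at 0.379, 0.511 and 0.452 CPM in Control, 7.36, 2.80 and 8.28 in NNK, 1.58, 1.23 and 1.55 in LPS, and 6.29, 7.41 and 5.06 in NNK_LPS. Again the tumour and lung libraries did not overlap, but here the LPS libraries were above Control. Etv4 rose by 2.93 ± 0.28 (adjusted p = 2.62e-06), and the effect with LPS was smaller than that without by 1.65 on the log2 scale (2.10 ± 0.36 against 3.75 ± 0.42, adjusted p of the difference = 0.0408). Etv4 and Ros1 were among the 4 genes that were concordant when a change beyond 1.5-fold was required in the test. The other members of that set were Npy2r and Tnfsf9.

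Of 20 targets and feedback regulators of RAS and ERK signalling, 12 rose (14.1% of all genes did) and 1 fell (18.1%). The median main effect was 0.36 on the log2 scale. Without LPS 10 rose (6.46% of all genes did), and with LPS 8 rose (17.3%) and 4 fell (20.9%), namely Dusp5, Fosl1, Egr1 and Il1rn. Concordant and higher were 5 of them (2.13% of all genes were): Etv4, Areg, Dusp4, Spry2 and Spred2. The EGF receptor ligand gene Areg rose by 1.81 ± 0.33 and the MAP kinase phosphatase gene Dusp4 by 1.17 ± 0.19. The feedback inhibitors Spry2 and Spred2 rose by 0.67 ± 0.11 and 0.61 ± 0.08. Spry2 stood between 21.0 and 27.8 CPM in the 6 lung libraries and between 32.6 and 44.4 CPM in the 6 tumour libraries. The member that fell was Il1rn, the interleukin 1 receptor antagonist (-2.28 ± 0.17), whose level in LPS lung was 512 to 632 CPM against 11.0 to 20.7 CPM in all other libraries of the contrast. Without LPS 1 and LPS 2, 10 members rose and 1 was concordant.

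A run of 3 neighbouring genes on chromosome 12 was concordant and higher. Meg3, Rian and Mirg, non-coding RNAs expressed from the maternal copy of the imprinted Dlk1-Meg3 cluster, span chr12:109541001-109749460 (GRCm38). Meg3 stood at 10.0, 11.9 and 14.4 CPM in Control, 256, 121 and 339.5 in NNK, 45.2, 3.41 and 4.17 in LPS, and 409, 217 and 74.0 in NNK_LPS. LPS 1 stood above all other lung libraries, and all tumour libraries exceeded all lung libraries. The main effect was 4.02 ± 0.61 for Meg3 (adjusted p = 0.000157), 3.48 ± 0.53 for Rian and 3.95 ± 0.62 for Mirg, and it was 5.07 for Meg3 without LPS 1 and LPS 2. Rian followed the same order of libraries, with 18.5 CPM in LPS 1 against 2.39 and 3.23 CPM in the other LPS libraries. Of 14 imprinted genes tested, 4 rose in the main effect (14.1% of all genes did) and 2, Peg3 and Ndn, fell (18.1%), with a median of -0.04. The member that rose besides Meg3, Rian and Mirg was Igf2. Concordant and higher were 3 of the 14 (2.13% of all genes were). Without LPS 3 rose (6.46%) and 5 fell (6.63%), with a median of -0.16. With LPS 6 rose (17.3%) and 0 fell (20.9%), with a median of 0.39.

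A promoter window of Meg3 is shown because Meg3 is the first of the 3 neighbours that rose together. The 300 bases, from 250 before to 50 after an annotated start, are at chr12:109540746-109541045 (RefSeq, GRCm38.p6, plus strand). Capitals mark matches to TGACGTCA, the cyclic AMP response element, and to TATAAA, where a pair of overlapping TATA matches runs together.
Meg3: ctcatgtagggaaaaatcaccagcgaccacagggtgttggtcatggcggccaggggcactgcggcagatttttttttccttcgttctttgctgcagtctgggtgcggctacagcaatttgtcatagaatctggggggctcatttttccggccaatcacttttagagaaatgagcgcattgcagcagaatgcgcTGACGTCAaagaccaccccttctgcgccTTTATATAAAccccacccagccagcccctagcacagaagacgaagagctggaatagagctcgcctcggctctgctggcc
The TGACGTCA match begins at base 194 of the window and the TATA matches at bases 222 and 226. TGACGTCA on either strand was present in 2.78% of 14300 windows of tested genes, in 1.48% of 337 windows of concordant higher genes and in 5.86% of 290 windows of concordant lower genes. These matches describe the letters of the window and not a bound site. A further annotated window of Meg3, at chr12:109545148-109545447, and the window of Ros1 held no match to any of the 5 motifs searched.

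Alveolar type 2 cell genes rose together. Of 18 markers, 16 rose in the main effect (14.1% of all genes did). Without LPS 13 rose (6.46%), with LPS 14 rose (17.3%), and 11 were concordant and higher (2.13%). The median main effect was 0.71. None of the 18 fell by edgeR, at an unadjusted p under 0.05 or by DESeq2. Sftpb, which encodes surfactant protein B, lies at chr6:72304610-72314371 (GRCm38, plus strand, protein coding). It stood at 4401, 3772 and 4259.8 CPM in Control, 7485, 6441 and 7199 in NNK, 2889, 2566 and 2325 in LPS, and 8748, 8921 and 6607 in NNK_LPS. The lung libraries were lower with LPS and the tumour libraries were not. Tumour and lung libraries did not overlap, while the NNK and NNK_LPS groups did. The main effect was 1.20 ± 0.09 (adjusted p = 4.08e-07), with 0.76 ± 0.13 without LPS and 1.64 ± 0.13 with it.

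The phospholipid remodelling enzyme gene Lpcat1 rose by 1.04 ± 0.09, from 349.8 to 617 CPM over the lung libraries to 849 to 1091 CPM over the tumour libraries. The surfactant protease gene Napsa rose by 0.87 ± 0.08 and the phosphate transporter gene Slc34a2 by 1.01 ± 0.11. These 3 genes, Sftpb, Abca3, Fasn and Muc1 were concordant in all 19 alternatives. Sftpc, which encodes surfactant protein C, rose in the main effect (1.10 ± 0.13) but its change without LPS was 0.33 (adjusted p = 0.239). The summed level of the 18 markers was 41563 to 49258 CPM in Control, 58484 to 71248 in NNK, 34217 to 41802 in LPS and 66999 to 92331 in NNK_LPS. In bulk tissue, a larger share of these cells and more RNA per cell cannot be told apart. Without LPS 1 and LPS 2, 16 markers rose and 8 were concordant.

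The Sftpb window is printed because this gene had the smallest adjusted p of the type 2 list, and because both a match to TGANTCA, the AP-1 site, and 1 to CACTNNAG, read here on the opposite strand as a site of the lung factor NKX2-1, occur in it. It covers chr6:72304360-72304659 (RefSeq, GRCm38.p6, plus strand), and capitals mark these matches, which begin at bases 233 and 284. The AP-1 match lies before the start site, and the NKX2-1 match lies within the 50 bases after it.
Sftpb: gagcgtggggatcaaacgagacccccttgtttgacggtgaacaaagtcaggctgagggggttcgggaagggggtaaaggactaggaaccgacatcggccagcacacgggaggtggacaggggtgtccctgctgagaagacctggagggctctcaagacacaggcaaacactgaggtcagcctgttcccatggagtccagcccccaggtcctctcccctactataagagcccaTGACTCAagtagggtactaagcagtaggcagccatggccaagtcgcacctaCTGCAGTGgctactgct
The AP-1 letters were present in 5.76% of all windows and in 5.64% of those of concordant higher genes, and the NKX2-1 letters in 14.1% and 12.8%. Among windows of concordant lower genes the shares were 6.21% and 19.0%, above those of the higher genes for both motifs, a description without a test.

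Transcription factors of lung epithelium gave a smaller pattern. Of 16 tested, 7 rose (14.1% of all genes did), with a median of 0.20. Only Cebpa, a factor of type 2 cell maturation and lipid metabolism, was concordant (0.88 ± 0.14), while 2.13% of all genes were concordant and higher. Cebpa stood between 125 and 175 CPM in the lung libraries and between 201 and 343 CPM in the tumour libraries. Nkx2-1, the lineage factor of lung epithelium, rose by 0.47 ± 0.06, with 0.27 ± 0.09 without LPS (adjusted p = 0.0553) and 0.67 ± 0.09 with it. The difference of its component effects was called (0.41 ± 0.12, adjusted p = 0.0244).

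Several enzyme genes of fatty acid synthesis rose with and without LPS. Of 21 genes of fatty acid and cholesterol synthesis, whose median was 0.08, 8 rose (14.1% of all genes did) and 2 fell (18.1%). Concordant and higher were 5 of them (2.13% of all genes): Scd1, Fasn, Acaca, Acly and Me1. Scd1 encodes the desaturase that makes monounsaturated fatty acids. It stood at 1629.9, 1880.4 and 1686 CPM in Control, 4705, 4349.8 and 5248 in NNK, 1904, 1722 and 893 in LPS, and 3594, 3423 and 3150.3 in NNK_LPS. LPS 3 was the lowest library, and no tumour library reached down to the lung range. Scd1 rose by 1.32 ± 0.16 (adjusted p = 2.55e-05), Fasn, the fatty acid synthase, by 0.93 ± 0.14, Acaca, the acetyl-CoA carboxylase, by 0.68 ± 0.09, and Acly, the citrate lyase, by 0.50 ± 0.07. Me1, the malic enzyme that supplies NADPH, rose by 0.81 ± 0.12. Cyp51, of cholesterol synthesis, was the concordant member that fell (-0.50 ± 0.09). Cyp51 was concordant in only 5 of the 19 alternatives.

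Among 15 p53 targets 4 rose (14.1% of all genes did), with a median of 0.25. Zmat3 and Sesn2 were concordant and higher, as were 2.13% of all genes. With LPS 3 rose and 4 fell (Mdm2, Bax, Gdf15 and Aen), and 8 of the 15 had the same sign in both component effects. DESeq2 called 7 of the 15 higher, and 2569 of all 15770 genes. Zmat3, which encodes a zinc finger RNA-binding protein, stood at 24.7, 22.7 and 22.5 CPM in Control, 50.3, 35.0 and 41.2 in NNK, 26.2, 27.9 and 26.1 in LPS, and 49.3, 43.6 and 38.9 in NNK_LPS. The lung libraries were close together and below every tumour library. Its main effect was 0.79 ± 0.08 (adjusted p = 5.29e-06), with 0.86 ± 0.12 without LPS and 0.72 ± 0.11 with it. Sesn2, a stress-induced regulator of growth signalling, rose by 0.88 ± 0.14.

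Several of the highest genes were almost unread in lung. Spag11b, a defensin-like gene best known from the epididymis, had 0 counts in all Control and LPS libraries, 69 counts over the NNK group and 281 over NNK_LPS. Against a floor of 3 counts per group it was at least 22.8-fold higher in NNK and at least 83.6-fold higher in NNK_LPS. Npy2r, a receptor for neuropeptide Y at chr3:82538383-82548084 (GRCm38, minus strand, protein coding), had 1 count in Control, 207 in NNK, 1 in LPS and 106 in NNK_LPS. The ratio of CPM was 205 (95% interval 36.4 to 8130.5) without LPS and 94.6 (16.6 to 3769.7) with it, where the intervals cover counting error only. Both genes were detected in all 6 tumour libraries.

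The remaining 7 of the 14 highest concordant genes, after the 5 above, Rian and Mirg, were Tmem213, Cyp4a12a, Svopl, Atp6v1g3, Awat1, Ptprn2 and Shisa6. Tmem213, a membrane protein gene, stood at 0.958 to 1.21 CPM in Control, 5.67 to 10.9 in NNK, 0.273 to 0.788 in LPS and 4.95 to 22.5 in NNK_LPS, with a main effect of 3.86 ± 0.40. Atp6v1g3, a subunit gene of the proton pump, rose by 2.68 ± 0.37, Ptprn2, a phosphatase-like protein gene of secretory granules, by 2.67 ± 0.32, and Awat1, a wax ester synthase gene, by 3.76 ± 0.53. Shisa6 rose by 3.19 ± 0.39, and by 5.74 without LPS 1 and LPS 2, since LPS 3 held no count of it. Svopl and Cyp4a12a were close to the threshold without LPS (adjusted p = 0.0492 and 0.0499), and were concordant in 6 and 5 of the 19 alternatives. Reads of Cyp4a12a may be shared with its near-identical neighbour Cyp4a12b.

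The levels of 12 concordant genes in each library are drawn in the panel plot, with the diet groups beside the groups of the contrast.

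**Figure D3:**
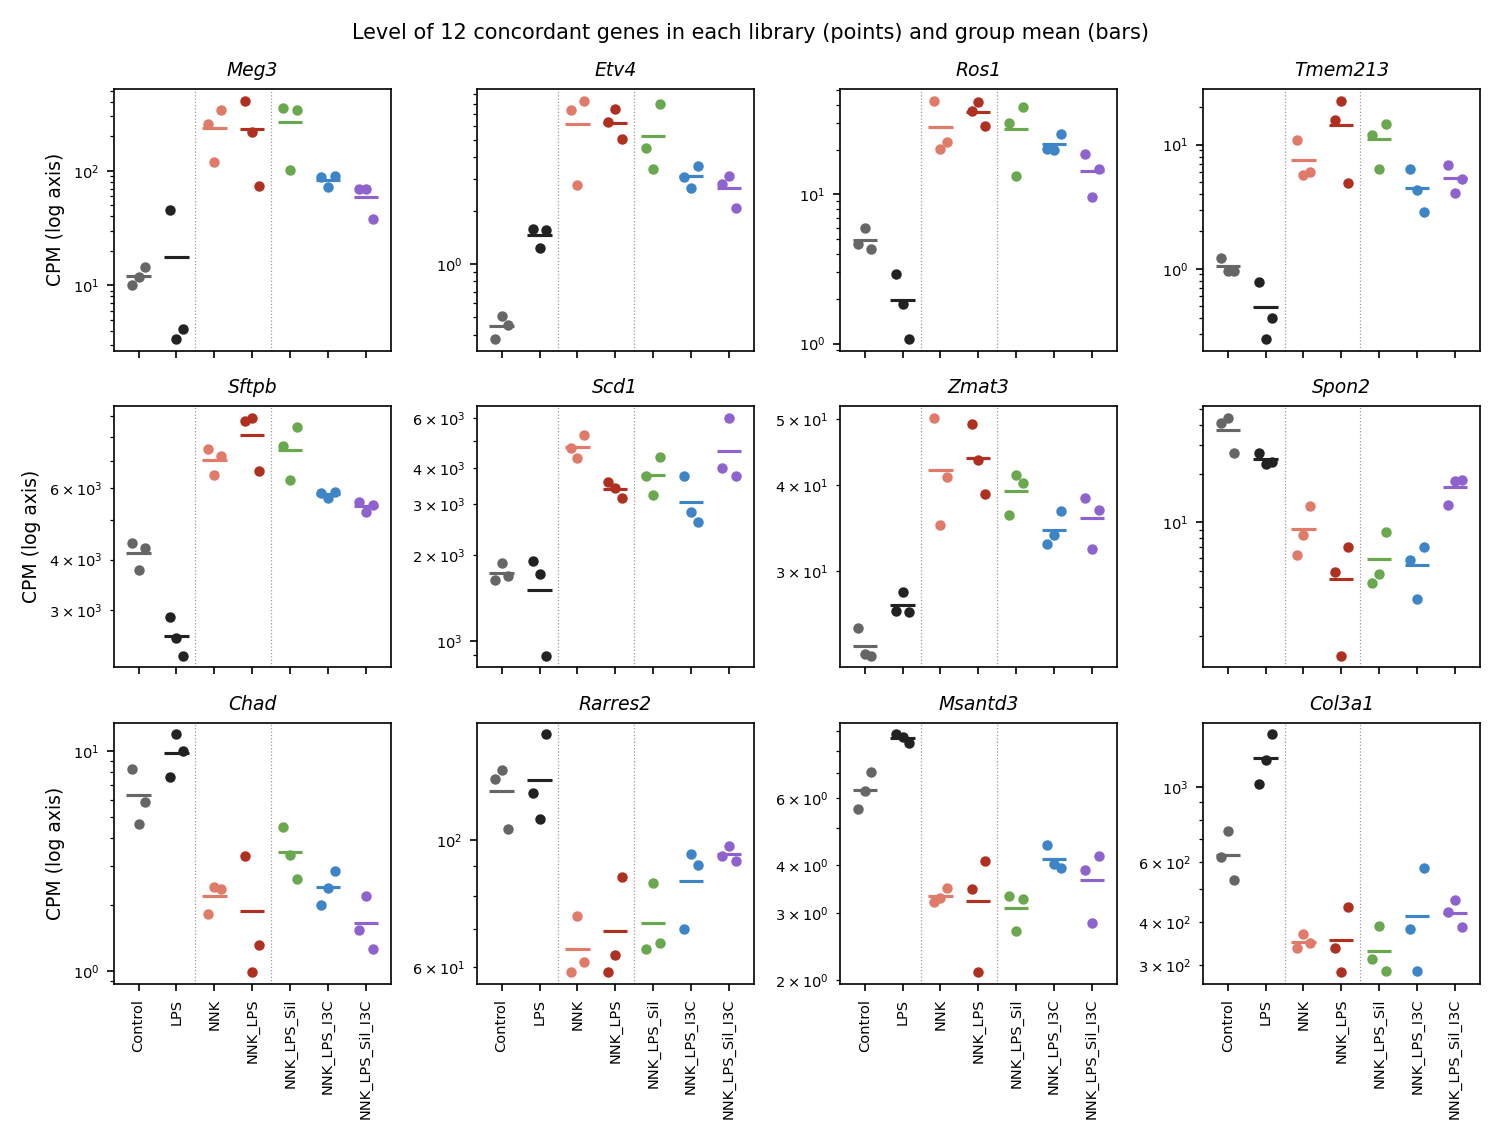
Points are CPM of single libraries on log axes and bars are group means, for 7 concordant higher genes and 5 lower ones in all 7 groups. In each panel the 6 NNK and NNK_LPS libraries lie on 1 side of the 6 Control and LPS libraries, and LPS 1 stands apart from the other LPS libraries for Meg3.

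Several genes of matrix proteins were among the 14 lowest concordant genes, beside the mucous gene Tff2 and heart muscle genes described further on. The matrix and protease list as a whole did not follow: of 20 genes 7 fell (18.1% of all genes did) and 2 rose (14.1%). Of these 20 genes, 1 fell without LPS (6.63%) and 10 with it (20.9%). None of the 20 was concordant by edgeR. At an unadjusted p under 0.05 0 were concordant and higher and 3 lower, and DESeq2 called 1 concordant. Spon2, a secreted matrix protein gene at chr5:33198184-33218455 (GRCm38, minus strand, protein coding), stood at 40.9, 44.2 and 26.6 CPM in Control, 6.29, 8.41 and 12.6 in NNK, 27.0, 23.0 and 23.5 in LPS, and 4.91, 1.51 and 7.06 in NNK_LPS. Every tumour library was below every lung library. The main effect was -2.23 ± 0.29 (adjusted p = 4.29e-05), with -2.03 ± 0.40 without LPS and -2.43 ± 0.42 with it. Chad, which encodes the matrix protein chondroadherin, fell by 1.95 on the log2 scale (SE 0.26), from 4.66 to 11.9 CPM over lung to 0.984 to 3.34 CPM over tumours.

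Col3a1, the chain of type III collagen, stood at 622, 743 and 531 CPM in Control, 336, 369.8 and 347 in NNK, 1017, 1194 and 1425 in LPS, and 336, 285 and 443 in NNK_LPS. The LPS libraries were the highest and the tumour libraries were at 1 level with or without LPS. The main effect was -1.31 ± 0.15 (adjusted p = 1.59e-05), and the effect with LPS exceeded that without (difference -0.92 ± 0.30, adjusted p = 0.0333). Msantd3, on chromosome 4, stood at 5.61 to 7.04 CPM in Control, 3.21 to 3.48 in NNK, 8.35 to 8.82 in LPS and 2.10 to 4.10 in NNK_LPS, and its main effect was -1.17 ± 0.14. Rarres2, which encodes the chemoattractant chemerin, changed by -0.91 ± 0.16 without LPS and -0.88 ± 0.16 with it, a difference of 0.04 ± 0.23. Igdcc4, Capn6, Clec11a and Lrat also fell, with main effects of -1.34, -1.22, -1.01 and -1.37 in that order. Lrat, which stores retinol as its ester, is a gene of lipid-storing stromal cells. Lrat was concordant in 12 of the 19 alternatives.

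Col3a1 is the first gene of a run of 3 concordant lower neighbours, Col3a1, Col5a2 and Wdr75, at chr1:45311538-45823619 (GRCm38), and its window at chr1:45311288-45311587 (RefSeq, GRCm38.p6, plus strand) is shown for comparison with the windows of the higher genes. Capitals mark its match to TATAAA, which begins at base 134, within the part before the start site.
Col3a1: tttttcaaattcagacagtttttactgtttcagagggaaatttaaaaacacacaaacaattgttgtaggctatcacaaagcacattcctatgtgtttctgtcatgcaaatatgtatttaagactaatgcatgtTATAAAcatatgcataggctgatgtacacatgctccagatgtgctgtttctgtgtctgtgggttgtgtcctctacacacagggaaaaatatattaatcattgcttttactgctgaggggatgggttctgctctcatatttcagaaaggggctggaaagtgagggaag
TATAAA on either strand was present in 7.88% of all windows, 7.72% of those of concordant higher and 7.93% of those of concordant lower genes. CCGGAAGT, the core site of ETS factors, was in 6.85% of all windows, 3.56% of the higher and 13.8% of the lower set, a description without a test.

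Fibroblast and smooth muscle markers did not all follow. Of 20, 3 rose and 4 fell, shares near the 14.1% and 18.1% of all genes, with a median of -0.19. Col3a1 alone was concordant, while 2.16% of all genes were concordant and lower. Col1a1 and Col1a2, the chains of type I collagen, fell in the main effect (-0.81 ± 0.17 and -0.76 ± 0.13) but stood at -0.04 ± 0.24 and -0.22 ± 0.18 without LPS, and the difference of the component effects was called for both. The summed marker level was 6240 to 6923 CPM in Control, 4445 to 5117 in NNK, 4152 to 4808 in LPS and 3523 to 4463 in NNK_LPS. Its part in the fall of the matrix genes was not tested.

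Most mucous cell markers were lower in the tumours. Of 9 tested, 7 fell (18.1% of all genes did) and 1 rose (14.1%), with a median of -1.77. Only 1 was called lower without LPS (6.63% of all genes were), against 5 with it (20.9%). Tff2, a trefoil peptide of mucous cells at chr17:31141049-31144282 (GRCm38, minus strand, protein coding), was concordant and lower (2.16% of all genes were). It stood at 2.43, 2.81 and 4.13 CPM in Control, 0.802, 1.03 and 0.0657 in NNK, 6.95, 10.1 and 17.2 in LPS, and 2.39, 0.262 and 0.854 in NNK_LPS. The NNK_LPS library at 2.39 CPM lay just below the lowest Control library, and the LPS libraries were the highest. Tff2 changed by -2.79 ± 0.45 in the main effect and was concordant in 12 of the 19 alternatives. Agr2 and Bpifb1, secretory genes of the same cells, fell with LPS (-3.09 ± 0.55 and -3.36 ± 0.69) and were at -1.02 ± 0.56 and -0.64 ± 0.63 without it. The member that rose was Foxa3, a factor of goblet cells (1.05 ± 0.27). The summed level of the list ranged from 22.4 to 214 CPM among the NNK_LPS libraries, against 332 to 426 in Control, 122 to 357 in NNK and 551 to 714 in LPS, and its part in the result was not tested.

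Of 14 club cell markers, among them Kdr, which was also listed as an endothelial marker, 4 fell (18.1% of all genes did) and 1 rose (14.1%). Without LPS 8 fell (6.63% of all genes did), with LPS 3 fell (20.9%) and 3 rose (17.3%), and the medians were -0.61 and 0.15. Hp, which encodes haptoglobin, and Cldn10, a tight junction gene, were concordant (-0.63 ± 0.09 and -0.84 ± 0.17). Of all genes, 2.16% were concordant and lower. Of the 19 alternatives, Hp was concordant in 15 and Cldn10 in 8. Cbr2, a carbonyl reductase of club cells, was the member that rose (0.34 ± 0.10). It was 4259 to 4462 CPM in Control, 2388 to 3379 in NNK, 1107 to 1474 in LPS and 2872 to 3154 in NNK_LPS. Its component effects were called with opposite signs, -0.58 ± 0.13 without LPS and 1.26 ± 0.14 with it.

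Of 30 cell cycle genes 11 fell (18.1% of all genes did), 2 without LPS (6.63%) and 9 with it (20.9%), with a median of -0.26. Mcm5, a subunit of the replicative helicase, and Pcna, the sliding clamp of DNA polymerase, were concordant and lower (2.16% of all genes were). None of the 30 rose in the main effect by edgeR, at an unadjusted p under 0.05 or by DESeq2. At an unadjusted p under 0.05, 1 was higher with LPS. Mcm5 stood at 20.8, 25.9 and 28.1 CPM in Control, 19.3, 16.4 and 17.7 in NNK, 35.2, 33.7 and 32.5 in LPS, and 18.7, 19.7 and 16.4 in NNK_LPS. All tumour libraries were between 16.4 and 19.7 CPM, below every lung library. The main effect was -0.69 ± 0.08 for Mcm5 and -0.32 ± 0.05 for Pcna. Mki67, a marker of cycling cells, changed by -0.60 ± 0.14, with -0.40 ± 0.20 without LPS (adjusted p = 0.198), and its call was lost without LPS 1 and LPS 2, when 4 of the 30 genes fell, as did 1878 of all genes.

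Serping1, the C1 inhibitor, and Tfpi, the tissue factor pathway inhibitor, were the concordant members of 18 complement and coagulation genes. Both were lower, and 2.16% of all genes were concordant and lower. Of the 18, 10 fell (18.1% of all genes did) and 2 rose (14.1%), with 3 lower without LPS (6.63%) and 10 with it (20.9%). Serping1 stood at 395 to 438 CPM in Control, 278 to 318 in NNK, 867 to 1075 in LPS and 254 to 399.5 in NNK_LPS. It fell by 1.03 on the log2 scale (SE 0.11), more with LPS than without (difference -1.04 ± 0.23, adjusted p = 0.00308). C3, the central complement component, fell in the main effect (-1.28 ± 0.18), with -0.43 ± 0.25 without LPS. Without LPS 1 and LPS 2, 10 members of the list fell, and neither Serping1 nor Tfpi was concordant. Of the 19 alternatives, Serping1 was concordant in 7 and Tfpi in 4.

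Mybpc3 and Ankrd1, both strongly expressed in heart muscle, were among the 14 lowest concordant genes (-1.60 ± 0.28 and -1.31 ± 0.26). Of 10 heart muscle markers tested, 6 fell in the main effect (18.1% of all genes did) and 8 without LPS (6.63%). With a term for library set in the model 4 fell in the main effect, as did 2190 of all genes. With LPS none was called by edgeR, none had an unadjusted p under 0.05, and none was concordant by edgeR or DESeq2. Their summed level was 570 to 599 CPM in Control, 123 to 272 in NNK, 104 to 148 in LPS and 88.0 to 169 in NNK_LPS, and Pln was at 0 in NNK_LPS 2 and NNK_LPS 3. Control was the highest of the 4 groups, and the part of this level in the fall of Mybpc3 and Ankrd1 was not tested. Ankrd1, Acsm1 and Nfe2l3 were close to the threshold in a component effect and were concordant in 4, 5 and 9 of the 19 alternatives.

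**Figure D4:**
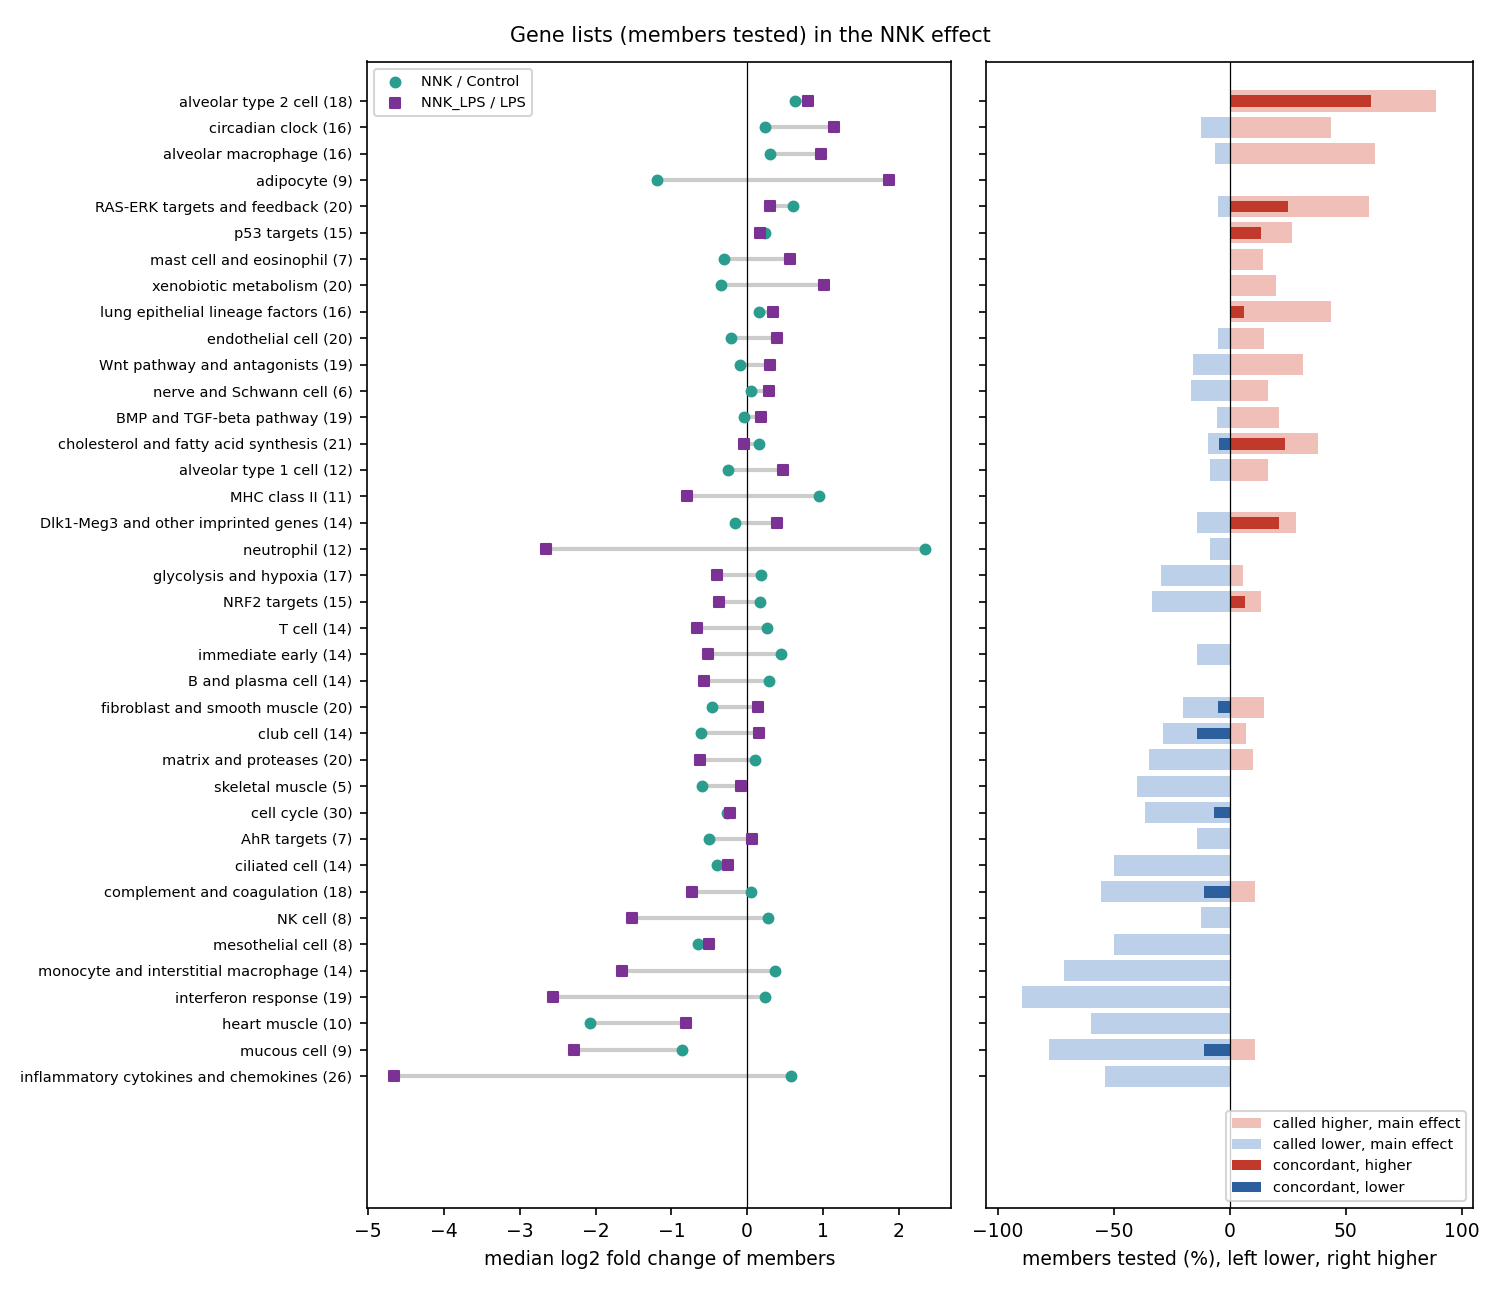
Left, the median log2 fold change of each gene list without LPS (circles) and with LPS (squares), and right, the share of its tested members called in the NNK main effect (pale bars) and concordant (dark bars). The type 2 cell list has both medians above 0.6 and the longest dark bar, while the inflammatory, interferon and neutrophil lists have medians on either side of 0 and no concordant member.

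The average hides lists whose component effects pointed apart. Of 26 inflammatory cytokine and chemokine genes, 14 fell in the main effect (18.1% of all genes did). With LPS 23 fell (20.9% of all genes did), and without LPS 2 rose (6.46%). None was concordant, nor was any at an unadjusted p under 0.05 or with DESeq2. Of 19 interferon response genes 17 fell (18.1% of all genes did), 19 with LPS (20.9%), and the median was 0.23 without LPS and -2.56 with it. Saa3, an acute phase gene, stood at 1.14 to 2.84 CPM in Control, 2.26 to 3.88 in NNK, 1526 to 2628 in LPS and 7.62 to 13.0 in NNK_LPS. The LPS libraries stood far above all others, and the main effect of -3.38 ± 0.72 joined 0.82 ± 1.08 without LPS and -7.59 ± 0.93 with it.

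Neutrophil markers had a median of 2.35 without LPS and -2.65 with it, and 1 of 12 was called in the main effect (32.2% of all genes were). Their summed level was 146 to 234 CPM in Control, 632 to 996 in NNK, 4544 to 6391 in LPS and 419 to 974 in NNK_LPS. The ranges of both tumour groups overlapped, and those of the lung groups lay below and above them. In the other direction, the fatty acid binding protein gene Fabp1 stood at 13.0 to 21.7 CPM in Control, 9.86 to 16.2 in NNK, 0.337 to 0.614 in LPS and 8.25 to 11.8 in NNK_LPS. Fabp1 rose in the main effect (2.02 ± 0.28) with -0.32 ± 0.33 without LPS and 4.36 ± 0.45 with it. Of 20 genes of xenobiotic metabolism, 4 rose in the main effect (14.1% of all genes did), 14 rose with LPS (17.3%) and 6 fell without it (6.63%).

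The 9 diet libraries, also tumours of NNK_LPS mice, took no part in the contrast, and their position relative to the lung libraries was used as a description. In 104 of the 336 higher genes (31.0%) all 9 stood above all 6 lung libraries, against 1.19% of all genes tested. In 130 of the 341 lower genes (38.1%) all 9 stood below them, against 2.00%. Ros1 ranged from 9.63 to 38.8 CPM in the diet libraries and Etv4 from 2.08 to 7.92, both above the lung range. Meg3 was above it in 8 of 9, the exception lying below LPS 1, and Tff2 was below it in 3 of 9. The 9 libraries share the lung libraries with the contrast, so these counts are not an independent test.

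Concordant genes were spread over the genome. Of the 677, 643 had 1 match in the GENCODE annotation (GRCm38), and 97.5% of the higher and 99.1% of the lower ones were protein coding, against 94.0% of all tested. The median gene span was 41.2 kb in the higher, 19.5 kb in the lower set and 22.8 kb over all genes, and the median level was 43.0, 53.2 and 23.8 CPM. There were 30 runs of adjacent tested genes concordant in 1 direction, 17 higher and 13 lower, with 63 genes in all and at most 3 in a run. Besides those of Meg3 and Col3a1, the third run of 3 held Slc26a9, an anion transporter gene, Pm20d1 and the magnesium transporter gene Slc41a1 at chr1:131744022-131848865 (GRCm38), all higher. The pair Pgap3 and Erbb2, the latter a receptor of the EGF receptor family, was higher at chr11:98388677-98437716.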

How the data were processed

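RNA of 21 libraries (Illumina TruSeq, per the labels' protocols) was analysed from the deposited table of raw counts per gene symbol. The submitters' processing notes name the build mm10. Which aligner, counter and annotation were used is not given in the sources used here. Counts were fitted with edgeR 4.0.16 in R 4.3.3 (TMM scaling, filterByExpr with a minimum count of 10, quasi-likelihood test) with 7 groups in 1 model, and p-values were Benjamini-Hochberg adjusted over all 15770 genes tested. CPM were computed from the deposited counts with TMM-scaled library totals. Named genes were the 14 highest and 14 lowest concordant genes by the smaller of both absolute component effects (no overlap between the groups, mean of at least 1 CPM, no uncharacterised models or receptor segments), up to 4 members per list with the smallest adjusted p, and the 6 highest and 6 lowest differences of the component effects. Members and gene lists were chosen with earlier results of these data known. Alternatives used DESeq2 1.42.0, other scalings, filters and models, and each library left out. The total counts limit the precision of each value, and counting intervals cover counting error only.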

Additional observations from a re-analysis of the deposited data

Results flagged for a closer look

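The size of the NNK effect differed between mice with and without LPS for 28 of the 75 genes examined by name. The edgeR test was of the difference of both component effects (log2, effect with LPS minus effect without). The 28 include the genes listed below as highest and lowest, which were named for the size of this difference. Their calls follow from how they were chosen, so 28 of 75 does not show how common such differences were. Of all genes tested, 25.1% had a called difference. For the other 47 of the 75 named genes the difference did not pass the threshold, which does not show that the effects were equal. Among concordant genes the difference was 1.68 for Ros1, 0.88 for Sftpb, 0.68 for Lpcat1 and 0.46 for Napsa, which changed more with LPS. It was -1.65 for Etv4, which changed less with LPS, and -0.92 for Col3a1 and -1.04 for Serping1, which fell more with LPS.

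Among epithelial genes called in the main effect but not concordant, the difference was 1.35 for Perp, 1.10 for Elf5, 0.41 for Nkx2-1, 1.84 for Cbr2 and -2.72 for Bpifb1. Stromal and complement genes gave -1.54 for Col1a1, -1.09 for Col1a2 and -1.69 for C3. The 6 highest differences chosen by rule were 4.68 for Fabp1, 4.52 for Cyp4a12b, 3.24 for Bex2, 2.99 for P2rx2, 2.98 for Htr2c and 2.96 for Dbp. The 6 lowest were -10.89 for Irg1, -8.98 for Orm2, -8.42 for Saa3, -8.35 for Il1f9, -7.65 for Slfn4 and -7.42 for Ccl4. Il1rn gave -5.92.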

How the results depend on the processing

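No named gene's main effect reversed under any alternative. The balance of higher against lower calls did turn: higher genes outnumbered lower ones in the main effect without Control 1 (2237 against 2210.0), Control 2 (2166 against 2145), LPS 2 (2322 against 2254), NNK_LPS 1 (2311 against 2286) or NNK_LPS 3 (2670.0 against 2562), with the additive model and with the 1.5-fold test, and the median over all genes was 0.0014 without Control 3, 0.0012 without LPS 2 and 0.0023 without NNK_LPS 2. With a term for library set, 3979 genes were called with LPS and 440 were concordant (208 higher). Without LPS 1 and LPS 2, chosen after seeing the data, the main effect had 1878 lower genes, the effect with LPS 3760.0 genes, and 368 were concordant (212 higher, 156 lower). Without a filter on low counts 186 lower genes were concordant, and an additive model on the 12 libraries called 3169 genes, 1565 of them lower. A test for changes beyond 1.5-fold called 243 genes (132 higher, 111 lower), 12 without LPS, 1277 with LPS and 992 for the difference. It left 4 concordant genes, 4 higher and 0 lower by edgeR (27 lower at an unadjusted p under 0.05; DESeq2 against no change gave 349). The cause of these shifts was not tested, apart from the stricter null and fewer libraries.

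Leaving out 1 library gave 154 to 768 concordant genes (121 to 498 higher, 33 to 270.0 lower), 404 to 2225 genes without LPS, 4720.0 to 6078 with LPS, 3117 to 3870.0 for the difference and 4206 to 5232 for the main effect (2014 to 2670.0 higher, 2133 to 2562 lower). With a replicate block, 5248 genes were called in the main effect and 756 were concordant. Same-numbered libraries correlated at -0.12 to 0.29, over 0.1 in 4 of 18 pairs, so the numbers were not taken to pair them. Other size factors gave 640.0 concordant genes (377 higher, 263 lower), DESeq2 811 (462 and 349) and the 4 groups alone 693 (425 and 268). Calls of the main effect were lost with a term for library set for Dbp, Irg1, Slfn4, Mki67 and Pln, and without Control 3 for Irg1, Orm2, Il1f9, Slfn4 and Ccl4. P2rx2 moved from 1.29 to 3.69 without LPS 1 and LPS 2. With 3 libraries per group, small changes in genes of low count were not detectable at this depth.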
